A study of Mus musculus with 5 samples.

Results

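The mouse genes described here carry placeholder symbols. A symbol that starts with Gm and goes on with digits is a predicted gene model, and a symbol that ends in Rik comes from a clone of the RIKEN cDNA collection. They were chosen by symbol alone from a table of short sites, called transcription start sites, each with a gene name and a value for every library. The choice gave 970 of 8034 named genes (12.1%) and 3056 of 34714 sites (8.80%). Of the 970 genes, 656 had a Gm symbol and 314 a Rik symbol. The 7064 other named genes, with 30896 sites, are the comparison throughout. The placeholder symbols do not all mean uncharacterised genes. RefSeq listed 547 of the 970, 8 of them under an older symbol, as 351 long noncoding RNA (lncRNA) genes, 112 protein-coding genes, 65 pseudogenes and 19 small or other RNA genes. The other 423 symbols had no match there.

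The study used ATAC-seq, in which a transposase cuts and tags open chromatin for sequencing. The nuclei came from C17.2 cells, an established line of multipotent mouse neural stem cells of CD1 x C57BL/6 origin. The cells were grown in DMEM/F12 with fetal bovine serum, and neural differentiation was induced by a change to Knockout DMEM with GlutaMAX and N2 supplement. The 5 libraries came from 0, 0.5, 1, 1.5 and 2 h after induction, 0 h being the control, with 1 library per time, although the design text names the baseline, 1 h and 2 h only. All 5 groups are the same line, so no difference between them is one of genotype. With 1 library per time the replicate error in these differences cannot be estimated, and no p-value is given.

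Each value is a whole number from 0 to 10, taken to be how many entries of a library's interval list lie over the site. The values were the sole ground for that reading. Read counts and read depth are not known. At 0 no entry lay over the site, which does not show that the chromatin was closed. A gene is represented by the site whose mean over the libraries was highest, and called covered in a library with 1 or more entries. Intervals in brackets are Wilson 95% intervals, which cover counting error over genes only. Of 8 markers of neural stem and progenitor cells, 6 had a site, and 2, 3, 2, 4 and 3 of these were covered at 0, 0.5, 1, 1.5 and 2 h. The astrocyte markers had no site here. The 3 oligodendrocyte markers with a site (Olig1, Olig2 and Mbp) and the epithelial marker Epcam were at 0 in all 5 libraries, as was the neuronal marker Rbfox3. The neuronal marker Map2 and the microglial marker Cx3cr1 each held 2 entries in every library.

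Most Gm and Rik models are products of genome annotation and of cDNA collections rather than of functional work. Many are lncRNA genes, which are transcribed and spliced but encode no long protein. A common arrangement is a divergent promoter, where a coding gene and a noncoding gene start close together on opposite strands and share 1 stretch of open chromatin. ATAC-seq reads the open stretch and not the strand, so it cannot assign the signal at such a promoter to either gene. Processed pseudogenes are copies of mRNAs inserted elsewhere in the genome, usually without the promoter of their parent.

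The sequence at the starts of 6 of these genes, or of the coding gene beside them, is shown here. The windows are RefSeq promoter sequences of GRCm38.p6, from 250 bases before the start to 50 bases after it, 5′ to 3′ on the strand of the gene named. Capitals mark matches to the motifs searched, which in these 6 windows were the GC box (GGGCGG) and the CCAAT box (CCAAT), on either strand. 4930539J05Rik (chr3:135438616-135438915, minus strand) held entries in every library. 4930599N23Rik (chr6:39118223-39118522, plus strand), A730056A06Rik (chr7:73375725-73376024, minus strand) and 1810026B05Rik, now Chaserr (chr7:73558346-73558645, minus strand), were not covered at 0 h and were covered later. The representative sites of A730056A06Rik and Chaserr, 372 and 206 bp from the start, lie outside these windows. Gm26559 (chr13:99516384-99516683, plus strand) had few entries at 1 and 2 h. The last window is that of the coding gene Clmn (chr12:104865027-104865326, minus strand), which holds the site of 4930408O17Rik, covered at 0 h alone.
4930539J05Rik: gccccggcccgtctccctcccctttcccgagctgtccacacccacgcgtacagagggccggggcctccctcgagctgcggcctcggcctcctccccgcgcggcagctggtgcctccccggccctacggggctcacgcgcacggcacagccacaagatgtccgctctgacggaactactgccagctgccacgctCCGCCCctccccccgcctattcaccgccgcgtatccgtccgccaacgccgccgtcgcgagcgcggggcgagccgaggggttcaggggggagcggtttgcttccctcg
4930599N23Rik: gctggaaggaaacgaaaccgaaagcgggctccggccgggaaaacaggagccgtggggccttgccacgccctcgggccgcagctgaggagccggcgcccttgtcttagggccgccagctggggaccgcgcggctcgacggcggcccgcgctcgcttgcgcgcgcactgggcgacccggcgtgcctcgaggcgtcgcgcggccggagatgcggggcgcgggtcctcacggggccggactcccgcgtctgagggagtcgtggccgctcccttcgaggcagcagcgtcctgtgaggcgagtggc
A730056A06Rik: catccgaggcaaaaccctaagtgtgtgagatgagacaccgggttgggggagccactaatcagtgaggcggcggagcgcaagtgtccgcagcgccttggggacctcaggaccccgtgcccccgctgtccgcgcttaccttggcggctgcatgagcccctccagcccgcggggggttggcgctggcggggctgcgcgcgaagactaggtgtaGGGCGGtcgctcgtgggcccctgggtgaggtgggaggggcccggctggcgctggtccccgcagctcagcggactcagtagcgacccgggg
Chaserr: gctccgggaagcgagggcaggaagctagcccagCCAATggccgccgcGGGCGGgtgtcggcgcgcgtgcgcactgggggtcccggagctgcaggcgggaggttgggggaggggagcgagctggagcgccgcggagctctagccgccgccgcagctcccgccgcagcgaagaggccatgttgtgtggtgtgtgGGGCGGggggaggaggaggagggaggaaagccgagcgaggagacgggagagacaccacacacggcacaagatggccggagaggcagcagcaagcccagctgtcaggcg
Gm26559: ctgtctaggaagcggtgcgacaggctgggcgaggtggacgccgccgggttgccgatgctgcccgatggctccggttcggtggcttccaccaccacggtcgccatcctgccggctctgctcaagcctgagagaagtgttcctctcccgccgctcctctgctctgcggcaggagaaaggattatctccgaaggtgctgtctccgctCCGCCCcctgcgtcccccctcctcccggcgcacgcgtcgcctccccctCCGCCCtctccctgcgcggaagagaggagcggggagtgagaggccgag
Clmn: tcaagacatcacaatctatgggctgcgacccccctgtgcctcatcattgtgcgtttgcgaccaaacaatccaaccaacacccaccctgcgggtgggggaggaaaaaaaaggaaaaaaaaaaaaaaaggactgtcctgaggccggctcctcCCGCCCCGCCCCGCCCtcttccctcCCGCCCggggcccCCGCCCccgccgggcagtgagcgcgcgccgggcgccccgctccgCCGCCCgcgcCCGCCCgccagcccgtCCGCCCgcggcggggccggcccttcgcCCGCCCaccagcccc
GC content was 74% in the window of 4930539J05Rik with 38 CpG, 75% in that of 4930599N23Rik with 45 CpG and no match to any motif searched, and 70.7% in that of A730056A06Rik with 28 CpG. It was 72.3% with 30 CpG at Chaserr, 69.3% with 30 CpG at Gm26559 and 71% with 33 CpG at Clmn, whose window held 9 GC-box matches. In all 32851 RefSeq windows the median GC content was 52.7% and the median CpG count 7.

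The question put to the table was how many of these genes were covered at each time, beside the other named genes. Gm and Rik genes were covered less often. At 0 h 580 of 970 were covered, 59.8% [56.7 to 62.8], against 74.6% [73.5 to 75.6] of the other named genes. In the 4 later libraries the share of Gm and Rik genes was 62.2%, 59.0%, 64.5% and 63.3%. The other named genes stood at 78.6%, 74.2%, 81.3% and 80.4% at the same times. Counted by gene, both sets were lowest at 1 h and highest at 1.5 h. The difference lay in the number of genes covered and not in the number of entries where there was cover: covered Gm and Rik genes held a mean of 2.57, 2.71, 2.52, 2.76 and 2.55 entries in the 5 libraries, and other covered genes 2.58, 2.77, 2.55, 2.75 and 2.52.

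**Figure D1:**
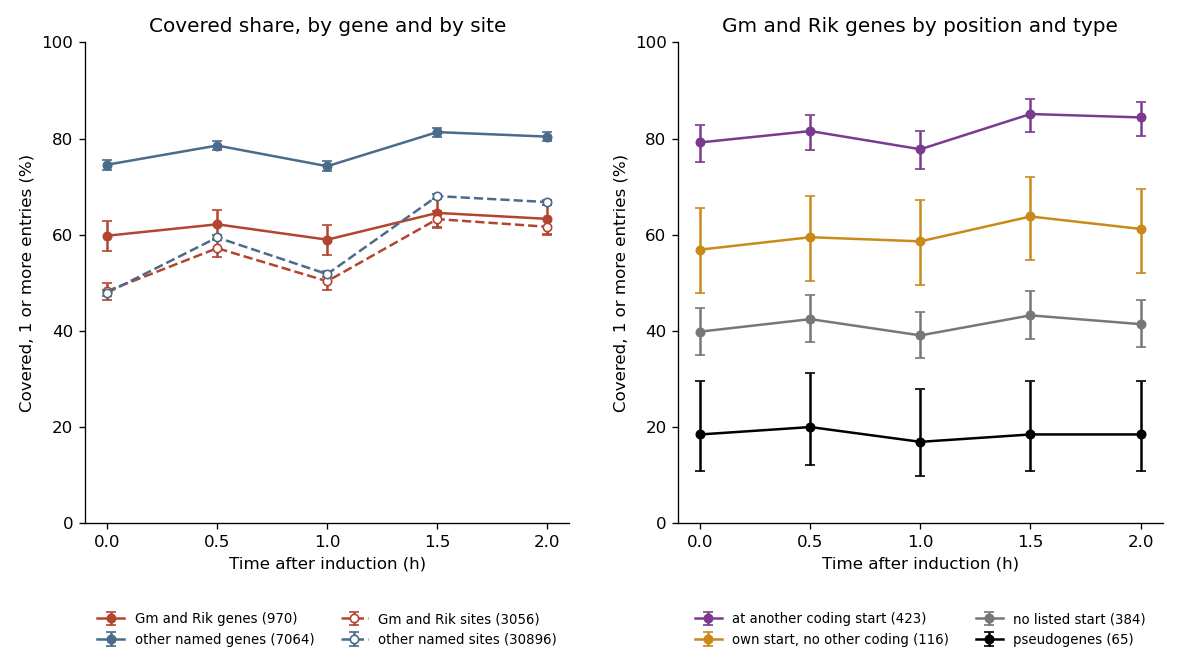
Left, share of Gm and Rik genes (red) and other named genes (blue) covered by 1 or more entries in each of the 5 libraries, by gene (solid) and by site (dashed), with Wilson 95% intervals over genes or sites. The intervals by site do not allow for values shared by sites of 1 gene, and are too narrow for that reason. Right, the Gm and Rik genes by position and type. By gene the Gm and Rik set lies at 59.0% to 64.5%, below the other genes at every time, and by site the sets are near each other at 0 h (48.3% and 47.9%).

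The size of the gap depended on how genes were counted. Gm and Rik genes had a median of 2 sites each against 3 for other genes. Among genes with a single site, 54.4% of 410 Gm and Rik genes and 74.8% of 2193 other genes were covered at 0 h, and with 2 or 3 sites the shares were 58.4% and 75.3%. The gap was narrower in genes with more sites, 70.9% against 74.9% with 4 to 7 sites and 67.1% against 72.2% with 8 or more. Counted by site and not by gene, the shares at 0 h were 48.3% for Gm and Rik sites and 47.9% for the others. By site the Gm and Rik set stood at 50.3% at 1 h, 63.3% at 1.5 h and 61.6% at 2 h, and the other sites at 51.8%, 68.0% and 66.8%. Both sets were thus lowest at 0 h by site, and not at 1 h as by gene. Sites of 1 gene often share their values and are not separate measurements.

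Most genes did not switch between covered and uncovered. Of the 970, 544 (56.1%) were covered throughout and 330 (34.0%) never, leaving 96 (9.90%) covered in 1 to 4 libraries. The same shares of other named genes were 70.8%, 17.2% and 12.1%. Among the 96, 17 genes (1.75% of the 970) were covered at every time but 0 h and 16 (1.65%) at every time but 1 h. The shares of other named genes with these patterns were 2.48% and 2.00%, so neither was more frequent in the Gm and Rik set. A further 12 were covered at 0.5, 1.5 and 2 h, 12 at 1.5 and 2 h, and 8 at 1.5 h alone. At 0 h alone there were 2, 4930408O17Rik and 1700086L19Rik. Cover at 1 h alone was seen at A830012C17Rik, with 1 entry. By gene, the 1 h library had the lowest covered share in the other named genes too. The time and the library cannot be told apart.

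**Figure D2:**
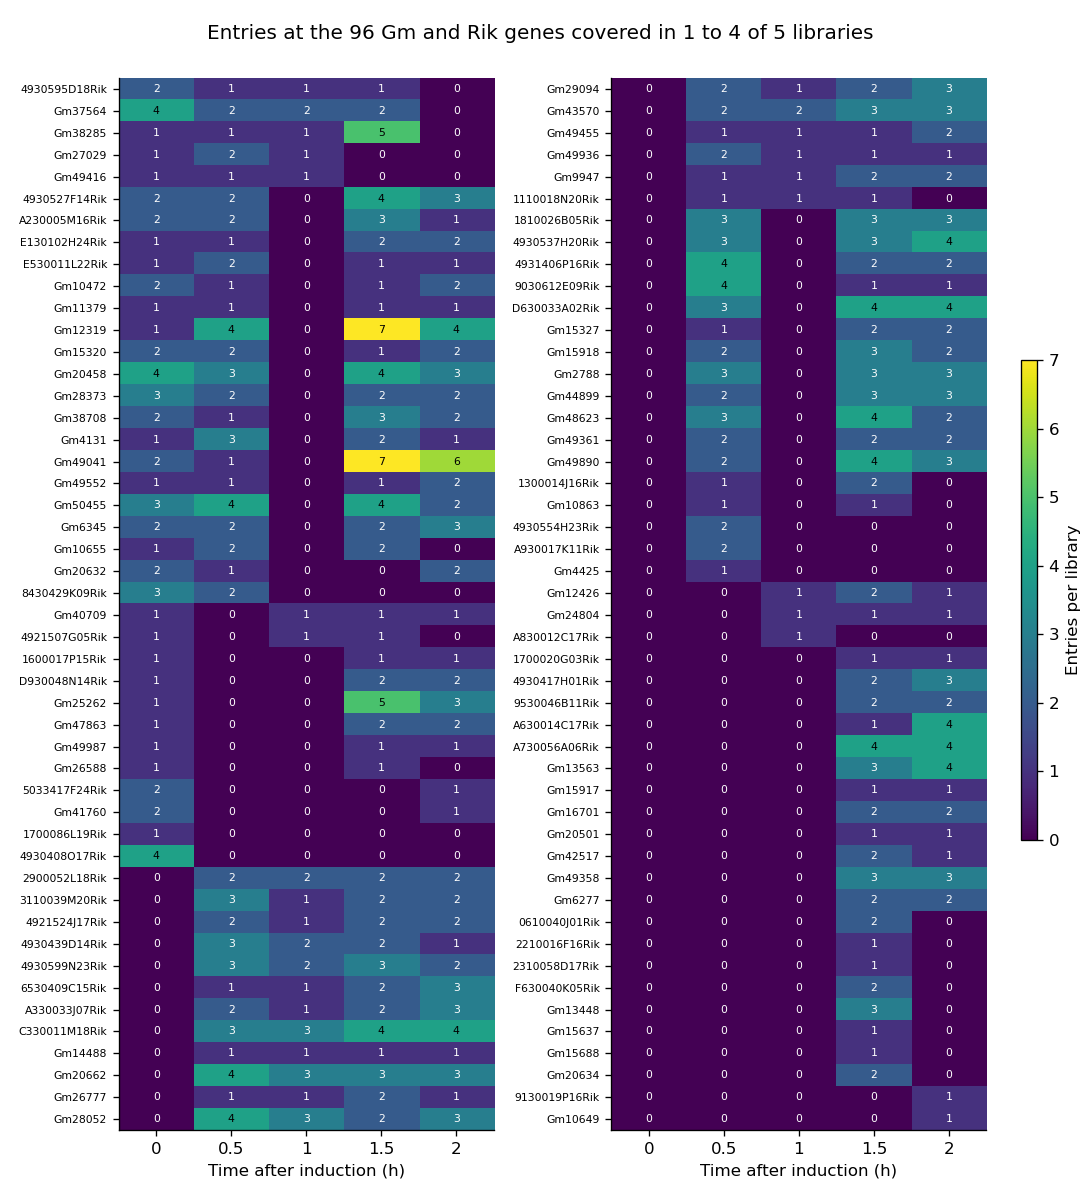
Entries in each library (columns, time after induction in h) at the 96 Gm and Rik genes covered in 1 to 4 of 5 libraries (rows, ordered by their pattern of covered times). Colour and digits both give the number of entries, from 0 to 7. Genes with 0 entries at 1 h and entries at 0.5, 1.5 and 2 h fill adjoining blocks in both columns of the plot.

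The types of gene differed in how often they were covered. Rik genes stood above Gm genes in every library, 67.2% against 56.3% at 0 h and 71.7% against 59.3% at 2 h. Among matched genes, 62.4% of lncRNA genes and 54.5% of protein-coding genes were covered at 0 h, and 10 of 19 small or other RNA genes (52.6%) were covered in each library. Pseudogenes were the least covered type, 12 of 65 at 0 h, 18.5% [10.9 to 29.6], and between 11 and 13 of 65 at the other times. Of the 65, 52 were at 0 in all 5 libraries. Examples of covered pseudogenes at the start of a coding gene are given here, without a share. Gm10138, 158 bp from the start of Ivns1abp, held 5, 4, 4, 5 and 5 entries, and Gm21926, near the start of Scaf8, held 3, 5, 3, 5 and 5. Of the symbols without a RefSeq match, 65.7% were covered at 0 h.

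Position relative to annotated starts divided the set further. On the chromosomes with listed starts, 939 genes could be placed, and the 31 on chromosome 18 were not analysed for this. Of the 939, 555 (59.1%) had their site within 500 bp of a listed start, against 69.1% of the placed other genes. The start of another gene that encodes a protein lay within 500 bp of 423 of them (45.0%), against 7.68% of the other named genes. In 350 of the 423 (82.7%) the Gm or Rik gene ran on the strand opposite to the coding gene, and in 228 it did so with its site upstream of the coding start. Where the Gm or Rik gene itself starts was not part of these counts, so they are not counts of divergent promoters. The median distance from site to coding start was 114 bp. Of the 73 pairs on the same strand, 65 had a symbol with no RefSeq match. Part of these may be the coding gene under another name, which was not tested.

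Sites beside a coding start were covered more often than those at the gene's own start with no coding start of another gene nearby. Of the 423 genes near a coding start, 79.2% [75.1 to 82.8] were covered at 0 h and 85.1% at 1.5 h. Of 116 genes near their own start and no coding start of another gene, 68 of them protein-coding themselves, 56.9% [47.8 to 65.5] were covered at 0 h and 63.8% at 1.5 h. Where both starts lay within 500 bp, 81.9% of 94 genes were covered at 0 h. The 384 genes with no listed start within 500 bp were covered in 39.8% [35.1 to 44.8] of cases at 0 h and 43.2% at 1.5 h. Within 500 bp of any start, 73.3% of Gm and Rik genes and 80.7% of others were covered at 0 h, a smaller gap than over all genes. Away from starts the shares were 39.8% and 60.5%. The list of starts is not complete and holds 81.8% of 21389 protein-coding genes outside chromosome 18. Of the 384 Gm and Rik genes away from starts, 76.8% had no listed start of their own. The share was 55.7% in the 2125 other genes away from starts. The second comparison is therefore less certain than the first.

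Cover was lower farther from starts in the Gm and Rik set. It was 78.3% at 0 h in the 184 genes with a site at most 50 bp from a listed start, 76.3% between 50 and 200 bp and 63.5% between 200 and 500 bp. Beyond 20000 bp 51 of 167 genes, 30.5%, were covered at 0 h. In the other named genes that last share was 67.9% of 920, so the order by distance did not hold there. Of those 920, 86.3% had no listed start of their own, as had 93.4% of the 167.

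The promoter windows of the genes near starts were rich in CpG whether or not they were covered. In 210 windows of Gm and Rik genes with a site within 500 bp of their own start, median GC content was 68.8% and the median CpG count 30.5, against 48.3% and 4 in the 11588 windows of all lncRNA genes and 56.3% and 13 in those of all protein-coding genes. Both types are among the 210. Windows of genes covered in all 5 libraries had a median GC content of 68.7% and 31 CpG. Those covered in none had 66.8% and 26.5 CpG. The motifs searched, on both strands, were the TATA box (TATAAA), the CCAAT box, the GC box, the ETS core (CCGGAAG), the CRE (TGACGTCA), the AP-1 site (TGANTCA), the NRF1 motif and the YY1 motif (AAGATGGCG). The GC box was found in 76.7% of the 210 windows and in 35.7% of all windows. The ETS core, the recognition sequence of a large family of activators, was found in 34 of 135 windows of genes covered throughout (25.2%) and in 5 of 52 windows of genes never covered (9.62%), against 8.86% of all windows. In the windows of genes covered in some libraries it was found in 3 of 23. In windows of the coding genes beside them the ETS shares were 25.5% of 314 where the Gm or Rik site was covered throughout, 12.5% of 56 where it never was and 5.77% of 52 where it was covered in some libraries, against 11.6% of all coding windows. The AP-1 site was found in 2.38% of the 210 windows and 7.81% of all windows, the CRE in 4.29% and 1.79%, the YY1 motif in 1.43% and 1.40%, and the NRF1 motif in 1.43% and 0.971%. The TATA box was in 7.14% and 13.6%, and the CCAAT box in 33.3% and 37.4%. The 210 windows were richer in GC than all windows, and the part of base composition in these shares was not tested. None of these motifs contains another, and GC boxes that ran together were each counted.

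Against 0 h, more Gm and Rik genes were higher than lower at 0.5, 1.5 and 2 h, and fewer at 1 h. A gene was called higher or lower when entries plus 1 differed at least 2-fold and the entries differed by 2 or more. At 0.5 h, 46 genes were higher (4.74%) and 11 lower (1.13%), where 6.75% and 1.68% of all named genes were. At 1 h, 19 were higher (1.96%) and 31 lower (3.20%), against 3.70% and 3.77%. The order at 1 h turned when each site was counted (143 higher, 98 lower) or the site nearest to the gene's annotated 5′ end was used (11 higher, 10 lower). At 1.5 h, 71 were higher (7.32%) and 15 lower (1.55%), against 9.60% and 1.59%. At 2 h, 55 were higher (5.67%) and 28 lower (2.89%), against 7.52% and 3.01%. The share of genes higher than at 0 h was thus below the background of all named genes at each time, and the share lower was near it at 1.5 and 2 h. Within 500 bp of a listed start the shares higher were alike, 9.55% of Gm and Rik genes against 9.71% of other genes at 1.5 h and 7.75% against 7.59% at 2 h. Away from starts they were 4.43% against 10.3% at 1.5 h. The median log2 ratio was 0 at each time, since 580 to 639 of the 970 genes held the same number of entries as at 0 h.

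Gains of cover were fewer than in the table at large. At 0 h 390 genes had no cover, and 35 of them had gained it by 0.5 h (8.97%). The later libraries had 21 gains at 1 h (5.38%), 54 at 1.5 h (13.8%) and 45 at 2 h (11.5%). Over all named genes the shares gained were 17.6%, 10.3%, 25.9% and 24.2%. Losses among the 580 genes with cover at 0 h numbered 12, 29, 8 and 11 in the 4 later libraries, or 2.07%, 5%, 1.38% and 1.90%, against 1.39%, 4.36%, 0.718% and 1.42% of all named genes. Near a listed start the gain was closer to that of other genes, 26.4% of 148 uncovered Gm and Rik genes at 1.5 h against 35.1% of 917 other genes. Away from starts it was 6.06% of 231 against 21.2% of 839. The shares gained depended on the site taken: at 1.5 h they were 20.1% with the site nearest to the gene's annotated 5′ end and 30.7% when each site was counted. Without replicates, none of these differences could be set against the spread between libraries of 1 time.

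**Figure D3:**
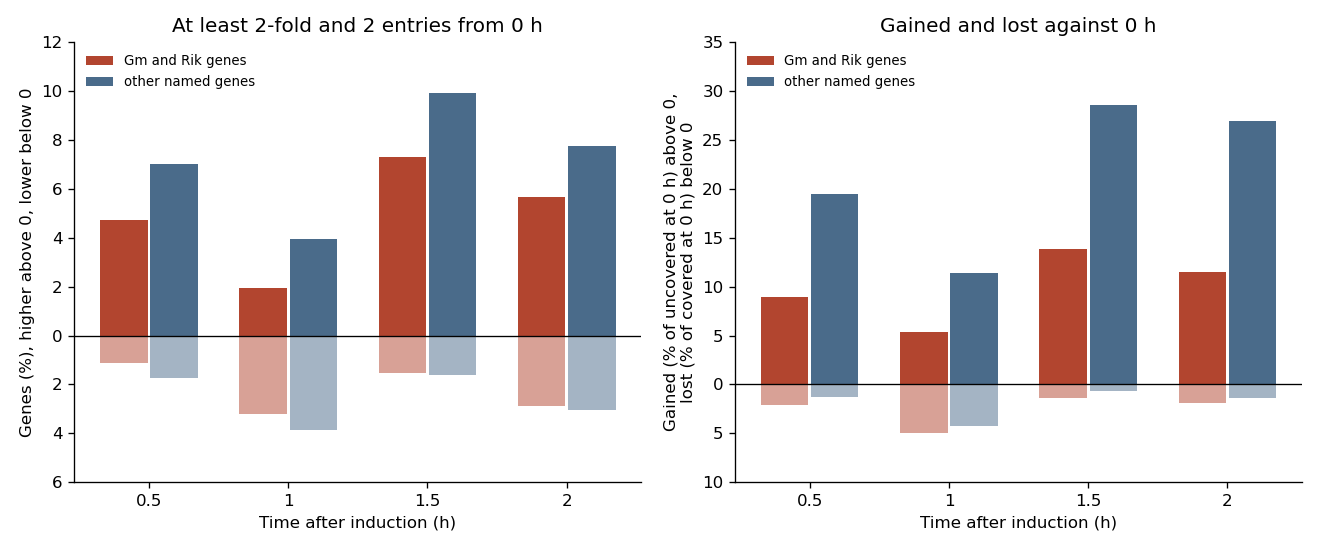
Left, percent of Gm and Rik genes (red) and other named genes (blue) at least 2-fold and 2 entries higher (bars above 0) or lower (pale bars below 0) than at 0 h. Right, genes gained as a percent of those uncovered at 0 h (above 0) and genes lost as a percent of those covered at 0 h (pale, below 0). At 1.5 h 13.8% of uncovered Gm and Rik genes were gained and 28.5% of other genes.

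The genes with the most entries held them in every library. Gm8098, a lncRNA gene whose site lies 97 bp from a site of Sptbn1, the gene of a beta-spectrin, had 7, 6, 6, 7 and 5 entries at 0, 0.5, 1, 1.5 and 2 h. Gm23119, a small RNA gene on chromosome 18, had 6, 6, 6, 7 and 6. G730013B05Rik had 6, 6, 6, 5 and 5 with no listed start within 500 bp. None of these 3 dropped below 5. 2410080I02Rik, a lncRNA gene upstream of the transcription factor gene Klf9, had 6, 5, 5, 6 and 5, and 4930556M19Rik, 683 bp from the start of Rai14, had 6, 5, 5, 5 and 5. Gm48163, 281 bp inside Top2b, the gene of the DNA topoisomerase II beta needed in neuronal development, had 5, 5, 6, 5 and 4. 1700025G04Rik, a protein-coding gene, differed in having 5, 6, 6 and 6 entries and then 2 at 2 h. 4930539J05Rik, whose start was shown above and faces that of Ube2d3, which encodes a ubiquitin-conjugating enzyme, had 3, 6, 5, 5 and 6, the lowest at 0 h. In all, 124 Gm and Rik genes (12.8%) held 3 or more entries in every library, against 16.0% of the other named genes.

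Cover that was absent at 0 h and present at all 4 later times was seen at the 17 genes counted above, 1.75% against 2.48% of other named genes. Sites of 1 gene did not always share the pattern, and where another site went the other way its values are given. C330011M18Rik, whose site is 342 bp downstream of the start of the transcription factor gene Rfx1, had 0, 3, 3, 4 and 4 entries. The site of Rfx1 itself, 152 bp away, had 0, 0, 0, 4 and 4, so the pair differed at 0.5 and 1 h only. The other C330011M18Rik site had 0, 3, 0, 4 and 4. Gm20662, 217 bp downstream of the start of the inositol hexakisphosphate kinase gene Ip6k1, had 0, 4, 3, 3 and 3. Gm28052, 459 bp from the start of Rnf8, a ubiquitin ligase gene of the DNA damage response, had 0, 4, 3, 2 and 3, but its other 2 sites, had 3, 1, 2, 2 and 1 and so were covered at 0 h. These 3 representative sites held 2 to 4 entries at each later time. 4930599N23Rik, opposite the ADP-ribosyltransferase gene Parp12 and with its own start among the sequences above, had 0, 3, 2, 3 and 2. Others of its 9 sites had 0, 0, 0, 3 and 2 or no entry in any library. The neighbouring Parp12 site had the values of the representative site, while the highest Parp12 site had 2 entries at 0 h. Gm43570 had 0, 2, 2, 3 and 3, with 0, 0, 2, 3 and 3 at the nearest site of the Mediator subunit gene Med12l. 4930439D14Rik had 0, 3, 2, 2 and 1 beside Ralgps2, whose nearest site had 0, 0, 2, 2 and 1. The other 4930439D14Rik site had the same values as that Ralgps2 site. 2900052L18Rik had 0 and then 2 at each later time, and 3110039M20Rik had 0, 3, 1, 2 and 2.

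A second group lacked cover at both 0 and 1 h. D630033A02Rik had 22 sites within 1073 bp of chromosome 10, at chr10:122985429-122986502, and its representative site had 0, 3, 0, 4 and 4 entries. No site was covered at 0 or 1 h, 20 were covered at 0.5 h, and all 22 at 1.5 and 2 h. The stretch of sites spans the RefSeq hairpin of the microRNA let-7i (chr10:122985640-122985724), which lies on the same strand as the gene and 129 bp from the representative site. The site nearest to the hairpin, 75 bp from it, had 0, 0, 0, 4 and 4, with no entry at 0.5 h. The let-7 microRNAs accumulate as stem cells differentiate and repress growth genes through a shared seed. The mature sequences, with the seed (bases 2 to 8) in capitals, are shown because D630033A02Rik is the gene beside a hairpin whose cover differed between libraries.
let-7i-5p: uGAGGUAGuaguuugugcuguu
let-7i-3p: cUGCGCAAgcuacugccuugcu
The table does not measure the RNA, so the values are those of chromatin at the locus. Of 8 Gm and Rik genes with a site within 1000 bp of a listed microRNA hairpin, looked up after the values were seen, D630033A02Rik was the single one to be covered in some libraries only. Gm17494 had a site over Mir760, and its representative site, 491 bp from the hairpin, had 2, 2, 3, 2 and 4 entries. 1700016P03Rik, 821 bp from Mir212, whose microRNA is induced by neuronal activity, was at 0 in all 5 libraries.

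Others in this group included genes at coding starts and a known lncRNA gene. 4930537H20Rik, 366 bp inside Gatad2b, a subunit gene of the NuRD chromatin complex, had 0, 3, 0, 3 and 4 entries. 1810026B05Rik is Chaserr, a lncRNA gene known in mouse for restraining its neighbour Chd2, which encodes a chromatin remodeller of neurodevelopment. Chaserr had 0, 3, 0, 3 and 3 at a site 206 bp from its start. Gm48623, near the start of the complexin gene Cplx2, had 0, 3, 0, 4 and 2, and Gm49890 had 0, 2, 0, 4 and 3. 9030612E09Rik, 29 bp from its own start and opposite Sobp, had 0, 4, 0, 1 and 1, and the Sobp site 439 bp away had 0, 4, 0, 0 and 0. 4931406P16Rik, the older symbol of the protein-coding gene Garre1, had 0, 4, 0, 2 and 2. At the representative site of each of these genes 0.5 h stood apart from both of its neighbours in time. Most of the 11 Gm49890 sites had 0, 0, 0, 4 and 3, and another 4930537H20Rik site had 0, 0, 0, 3 and 0, with no entry at 0.5 h. Other Chaserr sites had no entry in any library. C130071C03Rik, the lncRNA gene also called Visc-2 near the neuronal transcription factor gene Mef2c, held 4, 4, 4, 3 and 4 entries. 2900097C17Rik, the older symbol of the lncRNA gene Norad and named after its value was seen, was at 0 in all 5 libraries.

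Other genes were first covered, or had their most entries, at 1.5 or 2 h. A730056A06Rik, a lncRNA gene whose start was shown above, had 0, 0, 0, 4 and 4 entries. Gm13563, opposite the endosomal trafficking gene Entr1, had 0, 0, 0, 3 and 4, the same values as the Entr1 site 61 bp away. A630014C17Rik, 384 bp upstream of Tcf7, which encodes a transcription factor of the Wnt pathway, had 0, 0, 0, 1 and 4, and the nearest Tcf7 site had 0, 0, 0, 0 and 4. Gm12319, 432 bp upstream of the actin-binding profilin gene Pfn1, was highest at 1.5 h with 1, 4, 0, 7 and 4, and the Pfn1 site 448 bp away had 0, 0, 1, 7 and 0. Gm49041, near the start of the histone demethylase gene Kdm7a and named after its values were seen, had 2, 1, 0, 7 and 6. The 1.5 h library held the highest covered share in both gene sets, and its part in these values was not tested.

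**Figure D4:**
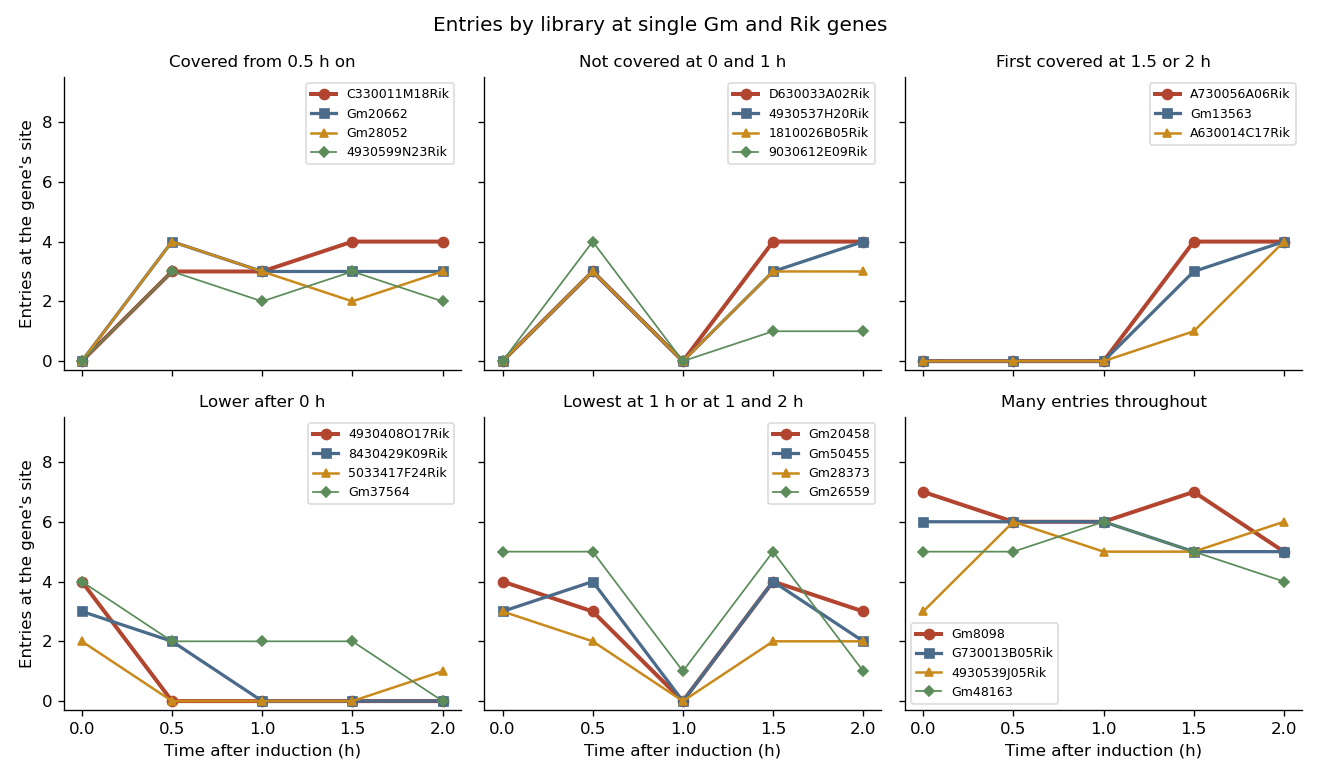
Entries at the representative site of single Gm and Rik genes in each library (x axis, time after induction in h; y axis, entries), 1 library per time and no error bars. The panels group genes by the times at which they were covered, or by where their entries were fewest or most. D630033A02Rik, 4930537H20Rik and 1810026B05Rik overlap at 0, 3 and 0 entries over the first 3 times.

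Among the genes lower than at 0 h, some stayed low in every later library or lost their entries over time. 4930408O17Rik, 16 bp from the start of Clmn, had 4 entries at 0 h and 0 at every later time, as did the Clmn site 18 bp away. Another Clmn site had 4, 0, 0, 2 and 2, so the loss did not extend over the whole gene at the last times. 5033417F24Rik, 7 bp from its own start and opposite the aminopeptidase-like gene Rnpepl1, had 2, 0, 0, 0 and 1, and the Rnpepl1 site 110 bp away had the same. 8430429K09Rik, 59 bp from the start of the ubiquitin ligase gene Rnf185, had 3, 2, 0, 0 and 0. Gm37564 on the X chromosome had 4, 2, 2, 2 and 0, with no listed start within 500 bp. Of its 12 sites, 6 had 1, 2, 2, 2 and 2 instead, so the loss was not that of the whole gene. 4930595D18Rik had 2, 1, 1, 1 and 0, and 1 of its other sites had 0, 4, 0, 0 and 0.

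At other genes a single library or a pair of them was low. Gm20458 had 4, 3, 0, 4 and 3 entries, Gm50455 had 3, 4, 0, 4 and 2, and Gm28373, near the inositol kinase gene Itpk1, had 3, 2, 0, 2 and 2. All 3 were at 0 at 1 h and nowhere else at these sites, while 5 of the 9 Gm28373 sites had 0, 0, 0, 2 and 2. Most of the 11 Gm50455 sites had no entry in any library. Gm26559, whose window was shown above, starts opposite Map1b, the gene of a microtubule-associated protein of growing axons, and had 5, 5, 1, 5 and 1, low at 1 and 2 h. Gm49333, 130 bp from the start of Camk2n2, an inhibitor gene of the kinase CaMKII, had 6, 1, 4, 5 and 5. Another Gm49333 site had 6, 1, 0, 5 and 5, and others had no entry in any library. Gm16618, near the start of the Wnt signalling gene Dvl3, had 4, 1, 1, 4 and 4. Gm20632, 78 bp inside the histone gene H2ac19, had 2, 1, 0, 0 and 2. On chromosome 18, Gm41760 had 2, 0, 0, 0 and 1. With single libraries, such dips and variation between preparations cannot be told apart.

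Genes that shared their region with a named neighbour were covered more often than the rest. At 243 of the 970 (25.1%) a site of another named gene lay within 1000 bp of the representative site, 219 of them (90.1%) on the opposite strand. Of these 243, 79.4% were covered at 0 h and 86.4% at 2 h, against 53.2% and 55.6% of the 727 without one. In 217 pairs at least 1 site was covered in some library, and 147 of these (67.7%) held equal entries in all 5 libraries. The other pairs differed in at least 1 library. Examples with many entries were 3010003L21Rik with Sinhcaf, a gene of the SIN3 deacetylase complex, both at 5, 5, 4, 6 and 2, and Gm45494 with Yap1, the transcriptional effector of the Hippo pathway, both at 5, 6, 5, 4 and 4. 5330438D12Rik with Cnot2, a subunit gene of the CCR4-NOT deadenylase, and Gm26608 with Insig1, a regulator gene of sterol synthesis, were at 5, 5, 4, 5 and 4. A830035O19Rik with Sidt2 was at 5, 4, 5, 5 and 4. Entries over such a pair cannot be assigned to either gene.

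The 5 models with the most sites show how far cover extended. Gm16596 had 21 sites over 698 bp of chromosome 12, of which 8, 9 and 8 were covered at 0, 0.5 and 1 h and all 21 at 1.5 and 2 h. Gm12446 had 30 sites on chromosome 4, with 40219 bp from the first to the last, of which 1, 11, 3, 11 and 11 were covered. All its covered sites lay at chr4:46304913-46305221, and those at chr4:46344175-46345132 were at 0 throughout. Gm20732 had 22 sites over 765 bp, of which 9, 11, 10, 14 and 12 were covered. Gm10125, a lncRNA gene on chromosome 18, had 23 sites, of which 1, 2, 1, 1 and 1 were covered. At Gm16596 cover was wider at 1.5 and 2 h than before, as it was at D630033A02Rik. A gene with many sites counts once by gene and many times by site.

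**Figure D5:**
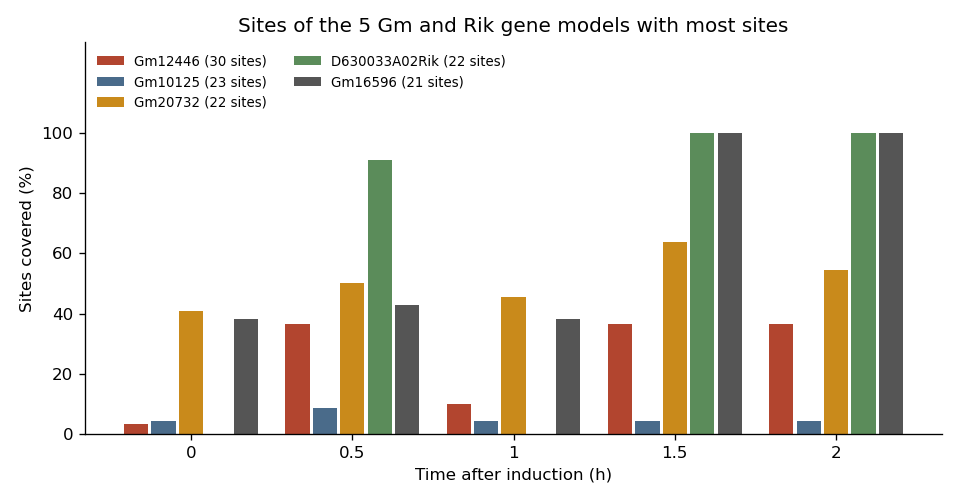
Percent of the sites of Gm12446, Gm10125, Gm20732, D630033A02Rik and Gm16596 covered by 1 or more entries at each time (x axis, h after induction; bars start at 0). All sites of D630033A02Rik and Gm16596 were covered at 1.5 and 2 h, and none of D630033A02Rik at 0 and 1 h.

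Uncovered genes were gathered in places. Between 17 and 25 Mb of chromosome 12 lay 36 Gm and Rik genes, of which 31 were at 0 in each library and 4 were covered throughout. Of 13 other named genes in the same stretch, 10 held entries in every library and 3 in none. Elsewhere on chromosome 12, 14 of 46 Gm and Rik genes were never covered. The 10 Gm and Rik genes between 146 and 148 Mb of chromosome 4 and the 5 between 6 and 7 Mb of chromosome 14 were at 0 throughout, as were 5 of 6 between 36 and 37 Mb of chromosome 17. How reads that map to more than 1 place were counted is not stated in the labels, and its part in these zeros was not tested. In the histone cluster between 96 and 97 Mb of chromosome 3, 4 of 9 Gm genes held entries in every library and 3 in none. Of those 4, 3 lay within 500 bp of the start of a histone gene, Gm20628 among them at 64 bp from H3c13.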

How the data were processed

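ATAC-seq libraries of C17.2 cells at 5 times, 1 library per time, were processed by the authors with Bowtie2, MACS2 and deepTools on GRCm38 (mm10), per the submitters' processing notes, without versions. Read shifting, duplicate removal and peak thresholds are not stated there. The deposited table holds a score per site and library, a whole number from 0 to 10, in columns named after BED files per the file headers. It was read as entries over the site. All 5 columns matched a sample, and 0 did not. Sites are 1 to 23 bp wide. Where their list came from is not given. Read depth is unknown.

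Gene names and strands are the table's. Gene types, starts, microRNAs and promoter windows came from RefSeq GRCm38.p6 tables, without chromosome 18 for starts and sequences. A gene's value is its site with the highest mean. Ratios are log2 of entries plus 1. Merged regions and 8 further alternatives were computed. The calls were tested on simulated data. With 1 library per time no test across samples is possible. Named genes were the 8 with the highest mean, the 6 largest increases and 5 largest decreases at each later time, genes covered at all later times or at 0 h alone (at most 8 each), 2 of a list of 16 with known roles that had a site, and the 8 highest that share values with a neighbour. Other genes, named with their values seen, include Gm49041, the many-site genes and those at microRNAs. The genes, lists and tests were chosen with earlier results of these data known. Python 3.11.15, pandas 2.3.3, numpy 2.4.6 and SciPy 1.17.1 were used.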

Additional observations from a re-analysis of the deposited data

How the results depend on the processing

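No paired analysis was possible because each time has 1 library, and for the same reason no library could be left out of a group. Of 9 alternatives, taking the highest value of any site in each library, merging sites within 500 bp into 1042 regions and a pseudocount of 0.5 changed no value past the tolerance used, which was the Wilson interval of the main value for covered shares and 1.5 times for the others. Covered at 0 h was 60.1% with the highest value and 58.2% by region. The median log2 ratio was 0 at every time in the main analysis and in each alternative in which it was computed. With the site nearest to the annotated 5' end (361 genes), 56.0% were covered at 0 h, 8.18% gained at 1 h, 2.97% lost at 2 h, 0.554% lower at 0.5 h and 3.05% higher at 1 h, while 20.1% gained at 1.5 h and 17% at 2 h stayed within the tolerance. At 1 h 11 genes were higher and 10 lower, the opposite order to the main 19 and 31. With cover set at 2 entries, 49.1, 53.7, 48.7, 56.7 and 53.3% were covered at 0, 0.5, 1, 1.5 and 2 h, 14.4, 9.31 and 17.4% gained at 0.5, 1 and 2 h, and 5.46, 10.5, 5.67 and 9.45% lost at the 4 later times. Without the minimum difference, 2.06% were lower at 0.5 h and 3.40% higher at 1 h. Among the 383 genes at or above the median gene, which keeps covered genes by construction, 99.0, 100, 98.4, 100 and 100% were covered, 100, 75.0, 100 and 100% of 4 genes gained, 0, 1.32, 0 and 0% lost, 3.39% were higher at 1 h and 5.22% lower at 2 h. Among 710 genes with no site of another named gene within 1000 bp of any of their own sites (727 by the representative site alone), 53.4, 55.4, 52.4, 57.2 and 55.5% were covered and 7.55% gained at 2 h. Counting each site, 48.3, 57.2 and 50.3% were covered at 0, 0.5 and 1 h, 19, 10.3, 30.7 and 28.0% gained at the later times, 10.2, 4.68, 17.8 and 15.2% were higher and 1.83% lower at 2 h. By site, higher sites also outnumbered lower ones at 1 h, 143 to 98. In those alternatives the cause of the shifts was not tested. With values of 0 to 10 and no read depth, a change of 1 entry cannot be given an error.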
